A study of Mus musculus with 12 samples.

Results

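The stress keratins *Krt6a*, *Krt6b*, *Krt16* and *Krt17* are the intermediate filament genes that mouse epidermis switches on when it is wounded, inflamed or hyperproliferative. They were taken by name from the count table, as 4 of the 21247 gene names and 4 of the 54 keratin genes (*Krt* with a number) listed, and all 4 passed the minimum of 10 counts summed over the libraries. The study asked which transcripts in periocular skin differ when MyD88, the adaptor of toll-like and IL-1 family receptors, is missing from filaggrin-deficient mice. It gives 4 libraries labelled ft/ft and 4 labelled ft/ftMyD88-/-, all from 6-week-old BALB/c mice. Both groups carry the spontaneous loss-of-function mutation of filaggrin (ft/ft) from which the *ma* mutation of *Tmem79* was bred out, and the second group is also MyD88-deficient (MyD88-/-). WT libraries were not analysed here.

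Keratin filaments form from pairs of a type II and a type I protein. *Krt6a* and *Krt6b* encode type II keratins, and *Krt16* and *Krt17* encode type I keratins that pair with them. In resting skin these genes are used mainly in the hair follicle (outer root sheath and companion layer), whereas the interfollicular epidermis uses *Krt5* with *Krt14* in its basal layer and *Krt1* with *Krt10* above it. Keratinocytes at wound edges and in psoriatic or otherwise thickened epidermis turn on all 4, and the genes are used as markers of keratinocyte activation. Whole skin holds follicles, glands, muscle and dermis beside the epidermis, so a lower value of a transcript can mean fewer cells of a type or less RNA per cell, and counts of bulk RNA cannot tell these apart.

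In GRCm38 the type II pair lies on the minus strand of chromosome 15 (*Krt6b* at chr15:101676023-101680287, *Krt6a* at chr15:101689910-101694307). The type I pair lies on the minus strand of chromosome 11 (*Krt16* at chr11:100246091-100248902, *Krt17* at chr11:100256217-100261029). Over 1659 aligned coding bases *Krt6a* and *Krt6b* were 97.8% identical. Of the 50-base windows of the *Krt6a* transcript, the length of the reads, 62.0% also occurred on either strand in a transcript of another gene. Of its 2229 windows, 972 occurred in *Krt6b* and 345 matched *Gm49428*, an antisense gene over *Krt6a* exons. The share of windows found in any other gene was 50.1% for *Krt6b*, 37.6% for *Krt16* and 3.99% for *Krt17*. For *Krt16* the windows were shared mainly with the pseudogene *Gm11597* (382 windows) and with *Krt14* (188 windows), the basal keratin to which its coding sequence was 86.7% identical. HTSeq, which the paper names where the labels name Cell Ranger, does not at default settings count a read placed at more than 1 locus. Reads of sequence shared by *Krt6a* and *Krt6b* can thus be missing from both, and the split between the 2 genes is uncertain. The pair is given below also as a sum, which does not bring back reads that were not counted. *Krt6a* exons overlap the antisense gene *Gm49428* by 429 bases, and without a stated strand setting reads of the 2 genes cannot be told apart. Such overlap at 1 locus is part of the 62.0%, though it does not by itself place a read at more than 1 locus.

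The stretch below is the longest coding run that *Krt6a* and *Krt6b* share without a difference inside 1 exon, and is shown because no read that falls wholly inside it can be assigned to either gene. It lies in exon 1, at chr15:101693936-101694215 in *Krt6a* and at chr15:101679911-101680190 in *Krt6b*, both on the minus strand, and spans 280 bases.
Krt6a and Krt6b: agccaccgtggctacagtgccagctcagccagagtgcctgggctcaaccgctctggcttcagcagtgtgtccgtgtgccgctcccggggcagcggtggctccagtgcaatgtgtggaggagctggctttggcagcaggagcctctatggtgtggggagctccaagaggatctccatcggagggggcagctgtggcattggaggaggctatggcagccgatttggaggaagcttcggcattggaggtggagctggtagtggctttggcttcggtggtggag

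The next pair shows where the copies differ most within 60 coding bases, with capitals for the bases that differ. Both lie in exon 4 on the minus strand, at chr15:101692484-101692543 and chr15:101678303-101678362, and 10 of the 60 bases differ.
Krt6a: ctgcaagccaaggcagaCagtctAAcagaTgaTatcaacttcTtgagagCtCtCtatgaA
Krt6b: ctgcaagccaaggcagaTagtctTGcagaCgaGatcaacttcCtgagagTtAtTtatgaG

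*Krt16* and *Krt17* are farther apart, at 80.5% identity over 1255 aligned coding bases, and in their most different 60 bases 19 differ. These stretches lie in exon 5 on the minus strand, at chr11:100247159-100247218 and chr11:100257800-100257859, with capitals again for the bases that differ.
Krt16: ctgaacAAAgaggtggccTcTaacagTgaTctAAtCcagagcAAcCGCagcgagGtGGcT
Krt17: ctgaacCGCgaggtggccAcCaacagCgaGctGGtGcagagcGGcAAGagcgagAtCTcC

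Each ft/ft library held 18941705 to 29255129 counts, and each ft/ftMyD88-/- library 15802957 to 27037997. Levels are given as CPM, the counts scaled to a common library size with edgeR's TMM factors, and values after ± are SDs over the 4 libraries of a group. *Myd88* itself was at 32.2 to 48.8 CPM in the libraries labelled ft/ftMyD88-/- against 25.4 to 36.5 in ft/ft, and so no lower where the gene should be missing (log2 fold change 0.42, edgeR adjusted p = 0.0484), and counts per gene do not show whether an exon is missing, so every direction here rests on the labels. The labels call all mice female, but *Xist*, the transcript of the inactive X chromosome, had 0 or 1 count in the ft/ft libraries and 567 to 1964 in the others. The Y-linked *Ddx3y* had 1095 to 1864 counts in ft/ft and 0 to 11 in ft/ftMyD88-/-. Genotype and sex therefore cannot be told apart in any comparison below. The study describes as many mice as libraries in each group, though the labels do not tie a library to a mouse.

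*Krt16* was the stress keratin that stood farthest apart between the groups. It was at 67.2, 253, 46.9 and 49.9 CPM in ft/ft replicates 1 to 4, and at 357, 702, 370.3 and 1074 CPM in ft/ftMyD88-/- replicates 1 to 4. The groups did not overlap, although ft/ft replicate 2 lay well above the other ft/ft libraries. The means were 104 ± 99.4 (SD, n = 4) and 626 ± 339 CPM (SD, n = 4), a ratio of 6.01. The log2 fold change was 2.58 (standard error 0.749, 95% confidence interval 0.77 to 4.40), and the adjusted p was 0.0530 (edgeR's quasi-likelihood test, Benjamini-Hochberg over all genes), just short of the threshold of 0.05. An exact two-sided permutation test of the CPM values gave p = 0.0286, the smallest that 4 against 4 libraries allow. A log2 fold change as large or larger was fitted for 333 of 20454 genes (1.63%).

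The *Krt16* call depended on 1 library, on the tool, on the filter and on the scaling. Without ft/ft replicate 2 the log2 fold change was 3.52 and the edgeR adjusted p 0.00701 (9.93% of all genes were then called higher), and without any other single library the call was not made. With all 8 libraries the adjusted p was 0.00125 with DESeq2 and 0.00428 with limma voom, both past the threshold. That of edgeR was 0.0393 with its filterByExpr filter, 0.0362 with library size alone and 0.0146 with scaling to general epithelial genes. The adjusted p ranged from 0.00125 to 0.119 over all alternatives. The direction was the same in all of them, with log2 fold changes from 2.20 to 3.52.

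*Krt17*, the most abundant of the 4 genes and the follicle keratin that marks activated keratinocytes, had a smaller fold change, though the fold changes of the 2 genes were not tested against each other. In ft/ft it was at 2129.7, 2239, 2291 and 2175 CPM, a narrow range, and in ft/ftMyD88-/- at 2899, 2915, 2195 and 2957 CPM. Replicates 1, 2 and 4 of ft/ftMyD88-/- lay above every ft/ft library, while replicate 3 lay among them. The log2 fold change was 0.31 (standard error 0.115, 95% confidence interval 0.06 to 0.56, edgeR adjusted p = 0.0680), and the exact two-sided permutation p was 0.0857. Without ft/ftMyD88-/- replicate 3 the log2 fold change was 0.42 and the adjusted p 0.0115 (*Krt17* was then the 1 member called, against 11.3% of all genes), within a range from 0.00110 to 0.148 over all alternatives.

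*Krt6a*, the main inducible type II keratin of the pair, overlapped between the groups. It was at 341, 479, 374 and 288 CPM in ft/ft and at 374, 685, 355 and 674 CPM in ft/ftMyD88-/-. Replicates 2 and 4 of ft/ftMyD88-/- stood above all other libraries, and replicates 1 and 3 lay within the ft/ft range. The means were 371 ± 80.7 and 522 ± 182 CPM (SD, n = 4 each), which gave a log2 fold change of 0.49 (standard error 0.257, 95% confidence interval -0.09 to 1.08, edgeR adjusted p = 0.201).

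*Krt6b*, its near copy, had the same 2 high libraries in ft/ftMyD88-/-. Its levels were 422, 602, 366 and 271 CPM in ft/ft and 298, 622, 287 and 698 CPM in ft/ftMyD88-/-, with ft/ft replicate 2 close to the high ft/ftMyD88-/- libraries. The log2 fold change was 0.20 (standard error 0.384, 95% confidence interval -0.71 to 1.10, edgeR adjusted p = 0.756), and without ft/ftMyD88-/- replicate 4 it was -0.033. Added into 1 row, which removes any exchange of reads between the copies, the pair was at 763, 1081, 739.8 and 559 CPM in ft/ft and at 673, 1307, 642 and 1372 CPM in ft/ftMyD88-/-. The log2 fold change of the sum was 0.35 (standard error 0.312, 95% confidence interval -0.37 to 1.06, edgeR adjusted p = 0.470). With an interval on both sides of 0, these libraries do not show whether the type II pair differed.

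**Figure D1:**
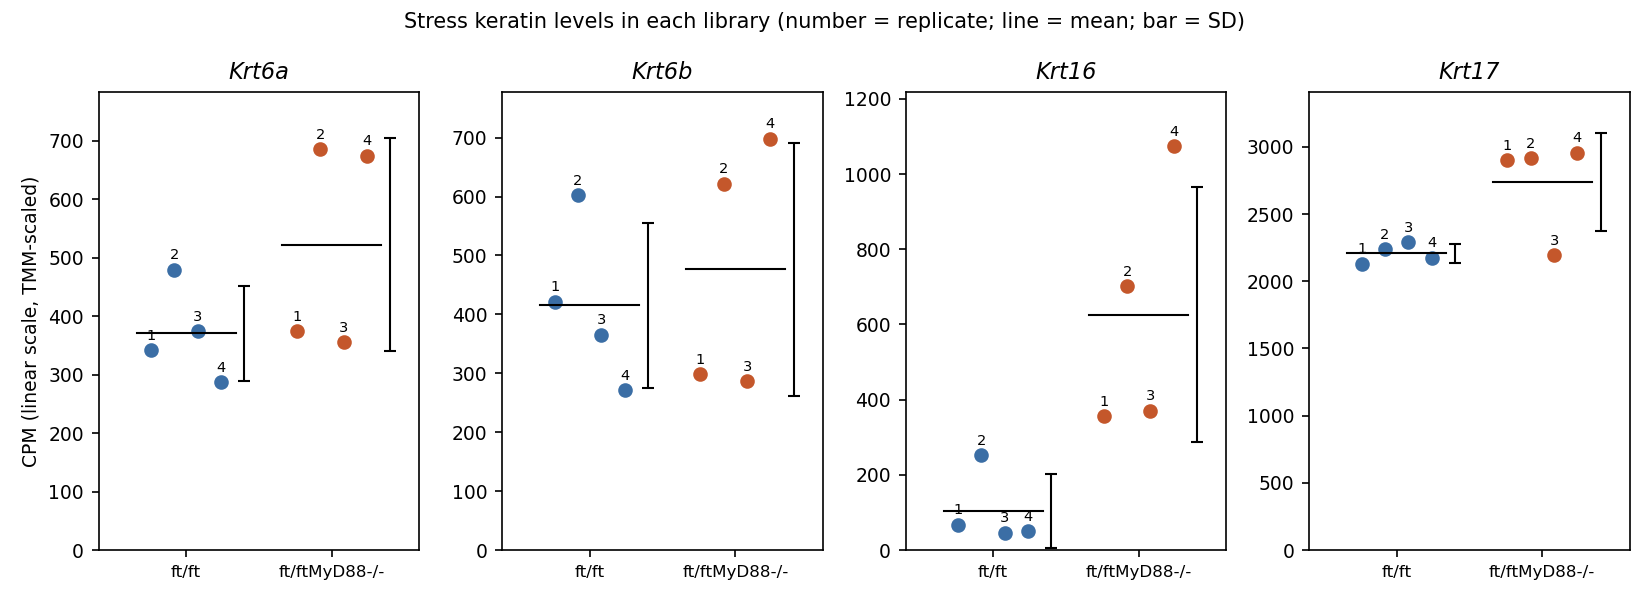
CPM (linear scale, TMM-scaled) of each stress keratin in the 4 ft/ft (blue) and 4 ft/ftMyD88-/- (orange) libraries, with replicate numbers, the group mean as a line and the SD as a bar; each panel has its own vertical axis. *Krt16* is separated between the groups (46.9 to 253 against 357 to 1074 CPM), *Krt17* is separated except for ft/ftMyD88-/- replicate 3 at 2195 CPM, and *Krt6a* and *Krt6b* overlap.

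Of the 4 stress keratins, 0 passed the edgeR threshold in either direction, where 10.9% of all genes tested passed it as higher in ft/ftMyD88-/- and 12.3% as lower. At an unadjusted p under 0.05 edgeR gave 2 of the 4 (*Krt16* and *Krt17*), against 18.4% of all genes in that direction. DESeq2 called the same 2 genes, against 14.0% of all genes, and limma voom called *Krt16* alone, against 10.7%. All 4 fold changes were positive, as were those of 10441 of the 20454 genes tested. The median log2 fold change was 0.40, against 0.01 over all genes tested and 1.39 over the 50 other keratins. *Krt16* was the 1 member whose groups did not overlap, a pattern seen in the higher direction for 12.5% of all genes.

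The scaling of the libraries bears on these values. The summed CPM of 8 general epithelial genes was 8145 to 9628 in ft/ft and 6129 to 7245 in ft/ftMyD88-/-, without overlap. With libraries scaled to that sum instead of TMM, *Krt6a* (log2 fold change 0.95, adjusted p = 0.0120), *Krt16* (3.11, adjusted p = 0.0146) and *Krt17* (0.74, adjusted p = 0.00110) all passed edgeR's threshold, while *Krt6b* stood at 0.67. That scaling also moved the median log2 fold change of all genes to 0.44 and called 42.9% of them higher, with 8780 genes higher and 528 lower against 2239 and 2525 under TMM. With library size alone *Krt16* and *Krt17* passed, the median of all genes was 0.19, and 4638 genes were higher and 1326 lower (22.7% of all genes higher). All 4 stress keratins had positive log2 fold changes under each scaling.

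**Figure D2:**
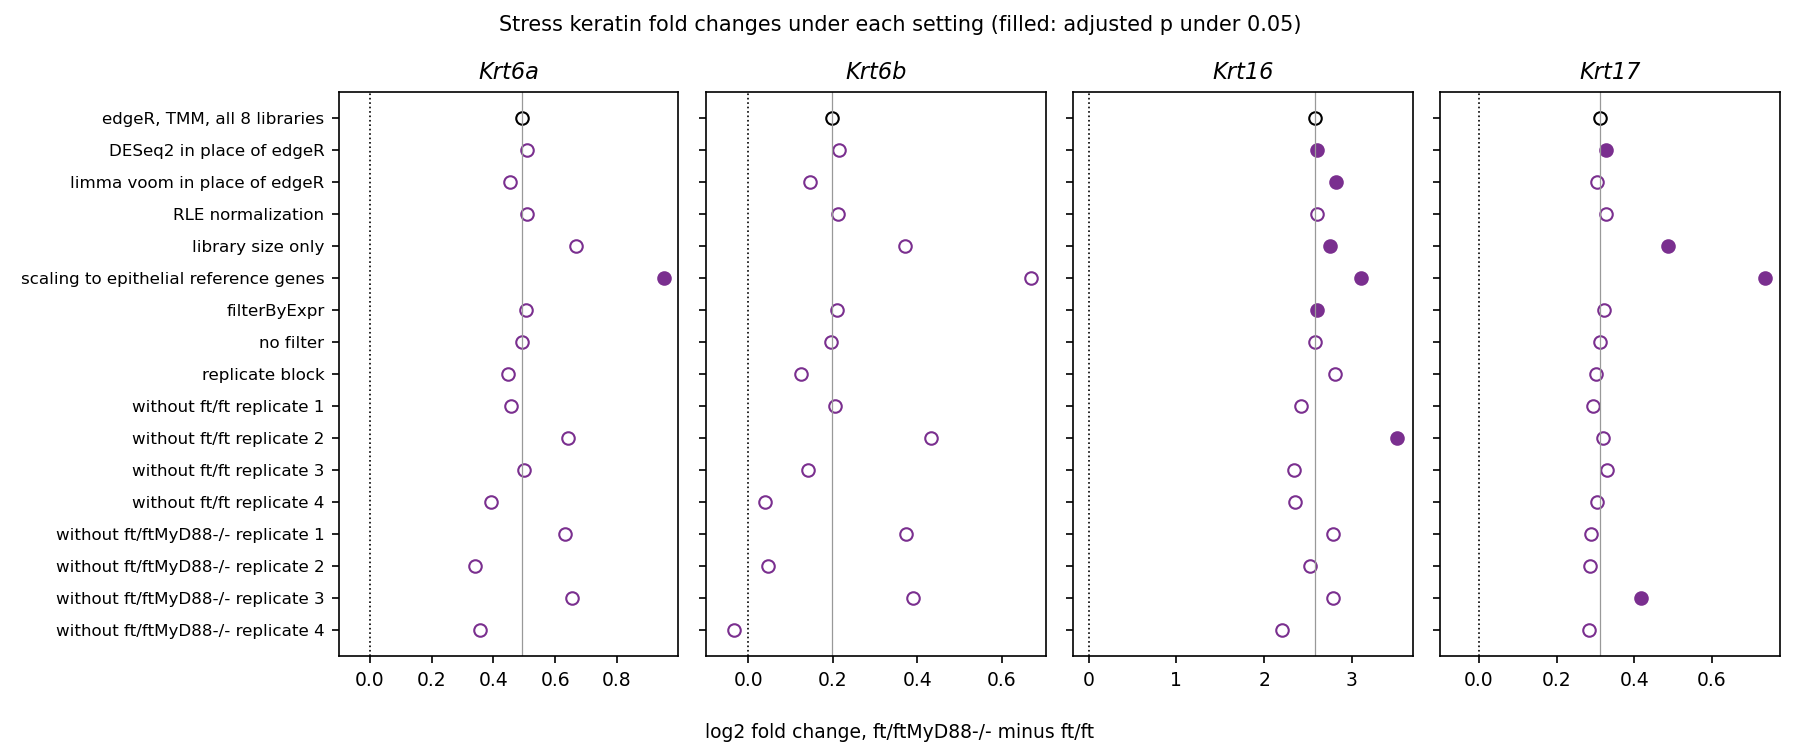
Log2 fold change (ft/ftMyD88-/- minus ft/ft) of each stress keratin under the reported fit (black, top row) and each alternative (purple), filled where the adjusted p was under 0.05; the dotted line is 0, the grey line the reported value, and each panel has its own horizontal axis. *Krt16* lies between 2.20 and 3.52 in all fits, and the only fit below 0 is that of *Krt6b* without ft/ftMyD88-/- replicate 4.

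Counted within each library, which no scaling between libraries can change, *Krt16* took a larger part of the stress keratin counts in ft/ftMyD88-/-. Its share was 2.27, 7.07, 1.52 and 1.79% of the counts of the 4 genes in ft/ft replicates 1 to 4 and 9.08, 14.2, 11.5 and 19.9% in ft/ftMyD88-/-, without overlap. *Krt17* held most counts in every library, at 62.7 to 78.1% in ft/ft and 54.7 to 73.8% in ft/ftMyD88-/-, with overlap. For every 100 counts of *Krt6a* and *Krt6b* together there were 6.34 to 23.4 counts of *Krt16* in ft/ft and 53.0 to 78.3 in ft/ftMyD88-/-. *Krt6b* made up 52.2 ± 3.77% of the counts of the type II pair in ft/ft and 46.9 ± 3.04% in ft/ftMyD88-/- (SD, n = 4 each), with overlapping libraries.

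**Figure D3:**
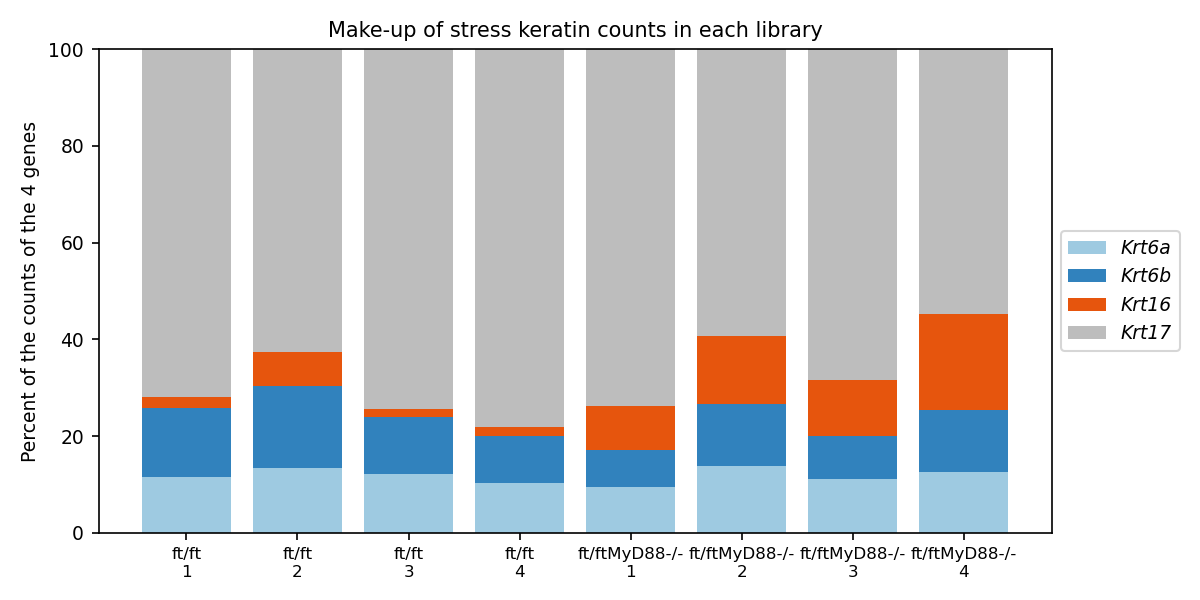
Percent of the summed counts of the 4 stress keratins taken by each gene, as stacked bars from 0 to 100% for each library. The orange *Krt16* segment takes 1.52 to 7.07% in ft/ft and 9.08 to 19.9% in ft/ftMyD88-/-, and grey *Krt17* is the largest segment in all 8 libraries.

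Per kilobase of transcript, which allows levels of different genes to be compared, *Krt17* was by far the highest in both groups, at 1424 ± 45.7 CPM per kilobase in ft/ft and 1768 ± 235 in ft/ftMyD88-/- (SD, n = 4 each). For comparison, *Krt14* stood at 2778 ± 373 and 2875 ± 499 CPM per kilobase in the 2 groups. In ft/ft *Krt6b* (186 ± 62.3) and *Krt6a* (163 ± 35.4 CPM per kilobase) followed with overlapping ranges, and *Krt16* came last at 66.6 ± 63.5, its highest library reaching into their range. In ft/ftMyD88-/- *Krt16* was second at 400 ± 217 CPM per kilobase, ahead of *Krt6a* (229 ± 79.9) and *Krt6b* (213 ± 95.9), but the ranges of these 3 genes overlapped. Counted per 1000 windows unique to each gene instead, *Krt6a* stood above *Krt6b* in both groups (437 against 381 in ft/ft and 616 against 437 in ft/ftMyD88-/-). The order within the pair thus depends on how shared sequence is treated. Windows of *Krt6a* that match *Gm49428*, the antisense gene over its own exons, counted as shared (345 windows). The level of *Krt6a* per unique window can therefore be too high, and the order by that measure is uncertain. Per 1000 unique windows *Krt16* was at 110 ± 105 in ft/ft. In ft/ftMyD88-/- it was at 661 ± 358, close to *Krt6a* at 616 ± 215, so the size of its lead over *Krt6a* also depends on that treatment.

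Against the rest of the keratin family the stress keratins held a larger share in ft/ftMyD88-/-. They made up 6.63 to 7.69% of all keratin counts in ft/ft and 8.88 to 14.8% in ft/ftMyD88-/-, without overlap, while all keratins together made up 4.03 ± 0.285% and 3.98 ± 0.620% of total counts (SD, n = 4 each). The keratins of the undisturbed epidermis fell or did not pass the test. *Krt5*, the basal type II keratin, fell by 0.67 on the log2 scale, from 4994 ± 495 to 3131 ± 189 CPM (SD, n = 4 each, edgeR adjusted p = 0.0014), and with scaling to the epithelial genes it no longer passed (log2 fold change -0.24, adjusted p = 0.201). Its partner *Krt14* had a log2 fold change of 0.05 (95% confidence interval -0.27 to 0.37, adjusted p = 0.839). The summed counts of *Krt6a* and *Krt6b* per 100 counts of *Krt5* were accordingly 12.9 to 20.3 in ft/ft and 21.8 to 43.0 in ft/ftMyD88-/-.

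*Krt15*, the keratin of quiescent basal and bulge cells, fell by 1.36 on the log2 scale (edgeR adjusted p = 0.000130). In the suprabasal layers *Krt10* fell by 0.58 (adjusted p = 0.0045, but -0.14 and 0.481 with scaling to the epithelial genes) and *Krt77*, from the same compartment, fell by 2.77, from 4229 ± 906 to 622 ± 418 CPM (SD, n = 4 each, edgeR adjusted p = 0.00675). *Krt1* had a log2 fold change of -0.10 under TMM and 0.35 with scaling to the epithelial genes, and *Krt2* one of -0.50, neither past the threshold. *Krt75*, the keratin of the follicle's companion layer, was at 93.6 to 134 CPM in ft/ft and at 402, 102, 149.5 and 240.1 CPM in ft/ftMyD88-/- (log2 fold change 0.98, edgeR adjusted p = 0.147). It was highest in the library where *Krt16* was lowest of its group, and next highest where *Krt16* was highest.

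**Figure D4:**
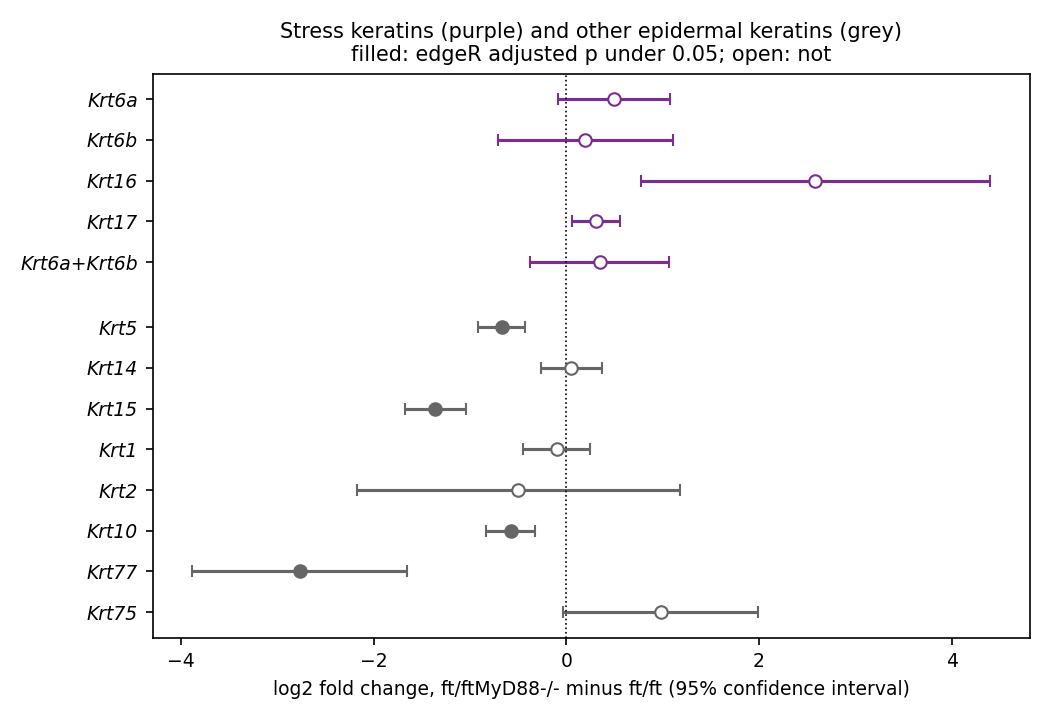
Log2 fold change (ft/ftMyD88-/- minus ft/ft) with its 95% confidence interval for the stress keratins and the sum of the type II pair (purple) and for 8 other epidermal keratins (grey), filled where edgeR's adjusted p was under 0.05. The intervals of *Krt16* (0.77 to 4.40) and *Krt17* (0.06 to 0.56) lie above 0 though neither passed after adjustment, and *Krt5*, *Krt15*, *Krt10* and *Krt77* lie below 0.

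Over all 54 keratin genes 2 passed as higher (10.9% of all genes tested), 9 passed as lower (12.3%) and 43 did not pass, and the median log2 fold change was 1.12. Scaled to the epithelial genes, 25 passed as higher and 3 as lower, where 42.9% of all genes tested were called higher. The 2 higher ones, named here after their values were seen, were *Krt42* (0.696 ± 0.110 against 2.02 ± 0.491 CPM) and *Krt74*, which had at most 3 counts in every ft/ft library and 2 to 25 in ft/ftMyD88-/-. *Krt16* ranked 10th of the 54 by log2 fold change, behind *Krt74* and a set of hair keratins that did not pass the test. With *Krt42* it was one of the 2 keratins higher without overlap, where 12.5% of all genes were. The 18 genes of the hair shaft and inner root sheath all had positive log2 fold changes (median 2.17), and 1 of them rose, *Hoxc13*, the regulator of hair keratins (log2 fold change 1.62, edgeR adjusted p = 0.0494). Their summed CPM was 2172 to 3169 in ft/ft and 20629, 2703, 4188 and 10571 in ft/ftMyD88-/- replicates 1 to 4. *Krt16* in the same 4 libraries was at 357, 702, 370.3 and 1074 CPM. The library with most hair transcripts thus held the least *Krt16* of its group, and the library with the next most held the most. The part of hair follicle content in the stress keratin levels was not tested.

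Follicle outer layers, where stress keratins are used in resting skin, were followed by 6 genes, of which 1 rose and 1 fell (median log2 fold change 0.04). For this and the 2 epidermal lists below, the shares of all genes tested were 10.9% higher and 12.3% lower. *Lhx2*, a transcription factor of follicle progenitors, rose by 0.38 (edgeR adjusted p = 0.0449), and *Fgf18*, a signal of the resting follicle, fell by 1.07 on the log2 scale (adjusted p = 0.00802). Their summed CPM was 369 to 476 in ft/ft and 396 to 678 in ft/ftMyD88-/-. Of 7 genes of the basal epidermis 5 fell (median -0.59), among them *Krt15*, *Krt5*, *Col17a1* and *Itgb4*, the last 2 being components of the hemidesmosome (log2 fold changes -0.80 and -0.59). Of 10 suprabasal genes 5 fell (median -0.54), including *Lor*, the cornified envelope protein loricrin (-1.51), the desmosomal cadherin *Dsg1a* (-1.10), *Krt78* (-1.02) and *Krt77*. These calls are those under TMM. With scaling to the epithelial genes *Krt15*, *Krt77* and *Krt78* still passed as lower, whereas *Krt5* and *Krt10* did not. The other genes of these lists are not given under that scaling.

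Other transcripts that keratinocytes make when activated were followed as 17 genes. Of these, 6 rose and 0 fell, with a median log2 fold change of 1.60 against 0.01 over all genes. Over all genes tested 10.9% were called higher and 12.3% lower. The cornified envelope precursor *Sprr1b* rose from 14.6 ± 11.7 to 135 ± 69.0 CPM (log2 fold change 3.19, edgeR adjusted p = 0.0174). *Il1f6*, which encodes the IL-1 family cytokine IL-36 alpha, rose by 2.07 (adjusted p = 0.0459), and *Lcn2*, the iron-trapping lipocalin, rose by 1.93 (adjusted p = 0.0431). *Gjb2*, the connexin of hyperproliferative epidermis, rose by 1.61 on the log2 scale (adjusted p = 0.0047). The summed CPM of the 17 genes was 619, 1069, 523 and 506 in ft/ft and 1863, 1753, 1182 and 2472 in ft/ftMyD88-/-. The highest ft/ft library was thus replicate 2, the one with most *Krt16*, and the highest library of all was ft/ftMyD88-/- replicate 4, which also held most *Krt16*. The next highest sum was that of ft/ftMyD88-/- replicate 1, which held the least *Krt16* of its group.

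Pathways known to induce stress keratins were followed as 23 genes, not all of them activators, of which 10 rose and 3 fell (median log2 fold change 0.36). Among all genes tested 10.9% were called higher and 12.3% lower. Named below are only the 4 called genes of largest change, which all rose. *Il17a* and *Il17f*, the cytokines of IL-17-producing T cells, had levels of 0.110 ± 0.129 and 0.194 ± 0.334 CPM in ft/ft against 2.33 ± 0.819 and 3.75 ± 1.37 CPM in ft/ftMyD88-/- (edgeR adjusted p = 0.000537 and 0.00834). *Il1b* rose from 3.80 ± 3.45 to 31.0 ± 12.5 CPM (log2 fold change 3.00, edgeR adjusted p = 0.0250). Its product signals through an IL-1 family receptor, for which MyD88 is the adaptor. The EGF receptor ligand *Epgn* rose by 2.06 on the log2 scale (adjusted p = 0.00102). *Il17a*, *Il17f* and *Il1b* were also higher in ft/ft replicate 2 than in any other ft/ft library, at 0.291, 0.691 and 8.69 CPM. In that library 3 counts equal 0.109 CPM, so the *Il17a* and *Il17f* values rest on few reads. The other genes of the list are not given for that library, and a link to *Krt16* was not tested.

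Proliferation, the other feature in the name of hyperproliferative epidermis, was followed by 10 genes, of which 9 rose and 0 fell (median log2 fold change 0.73). These genes are not particular to the epidermis, and bulk counts do not show which cells of the biopsy held their transcripts. The shares of all genes tested were 10.9% higher and 12.3% lower. *Mki67*, the classical proliferation marker, rose from 47.9 ± 23.6 to 110.5 ± 15.6 CPM (log2 fold change 1.20, edgeR adjusted p = 0.0362). The survivin gene *Birc5* rose by 0.97, the replication licensing factor *Mcm5* by 0.89 and the mitotic kinase *Cdk1* by 0.76 on the log2 scale. Their summed CPM was 293 to 373 in ft/ft and 480 to 639 in ft/ftMyD88-/-, without overlap, and 9 of the 10 genes did not overlap, where 12.5% of all genes were higher without overlap.

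The type II pair was alike over the libraries, and *Krt16* and *Krt17* lay farther from it and from each other. Likeness was measured as the root mean square difference in log2 CPM over the 8 libraries, each gene centred on its mean, among 13507 genes with a mean of at least 50 counts. *Krt6a* and *Krt6b* were 0.231 apart, which placed *Krt6a* 2nd of 13507 genes as seen from *Krt6b* and *Krt6b* 20th as seen from *Krt6a*. The split of reads between these near copies is uncertain, and the part of shared sequence in their likeness was not tested. *Krt16* and *Krt17* were 1.50 apart, and the difference between *Krt16* and *Krt6a* was 1.32. The spread of each gene about its own mean was 1.64 for *Krt16*, 0.514 for *Krt6b*, 0.433 for *Krt6a* and 0.199 for *Krt17*, so genes with a small spread also have small distances.

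The genes most like *Krt16* were *Sprr1b* (0.326), the late cornified envelope gene *Lce3b* (0.373) and *Fetub* (0.382), which encodes fetuin-B. *Sprr1b* followed it in detail, at 8.87, 32.1, 7.20 and 10.2 CPM in ft/ft and at 84.7, 155, 75.7 and 223 CPM in ft/ftMyD88-/-, with ft/ft replicate 2 again high and ft/ftMyD88-/- replicate 4 again highest. Nearest to *Krt6a* was *Pdpn*, which encodes the membrane mucin podoplanin (0.119), and the aldo-keto reductase *Akr1b8* was also near (0.180). Outside the 4 members, *Krt6b* was nearest to *RP24-180L12.6* (0.118), the interferon-inducible *Ifi209* (0.244) and *Fam3b* (0.249). *Krt17* was nearest to *Cfl1*, the actin-severing protein cofilin (0.0572), the ATPase *Ruvbl2* (0.0592) and the F-box gene *Fbxo34* (0.0616), all of which were lowest of their group in ft/ftMyD88-/- replicate 3, as *Krt17* was. These are descriptions over 8 libraries of 2 groups, which share the group difference itself.

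**Figure D5:**
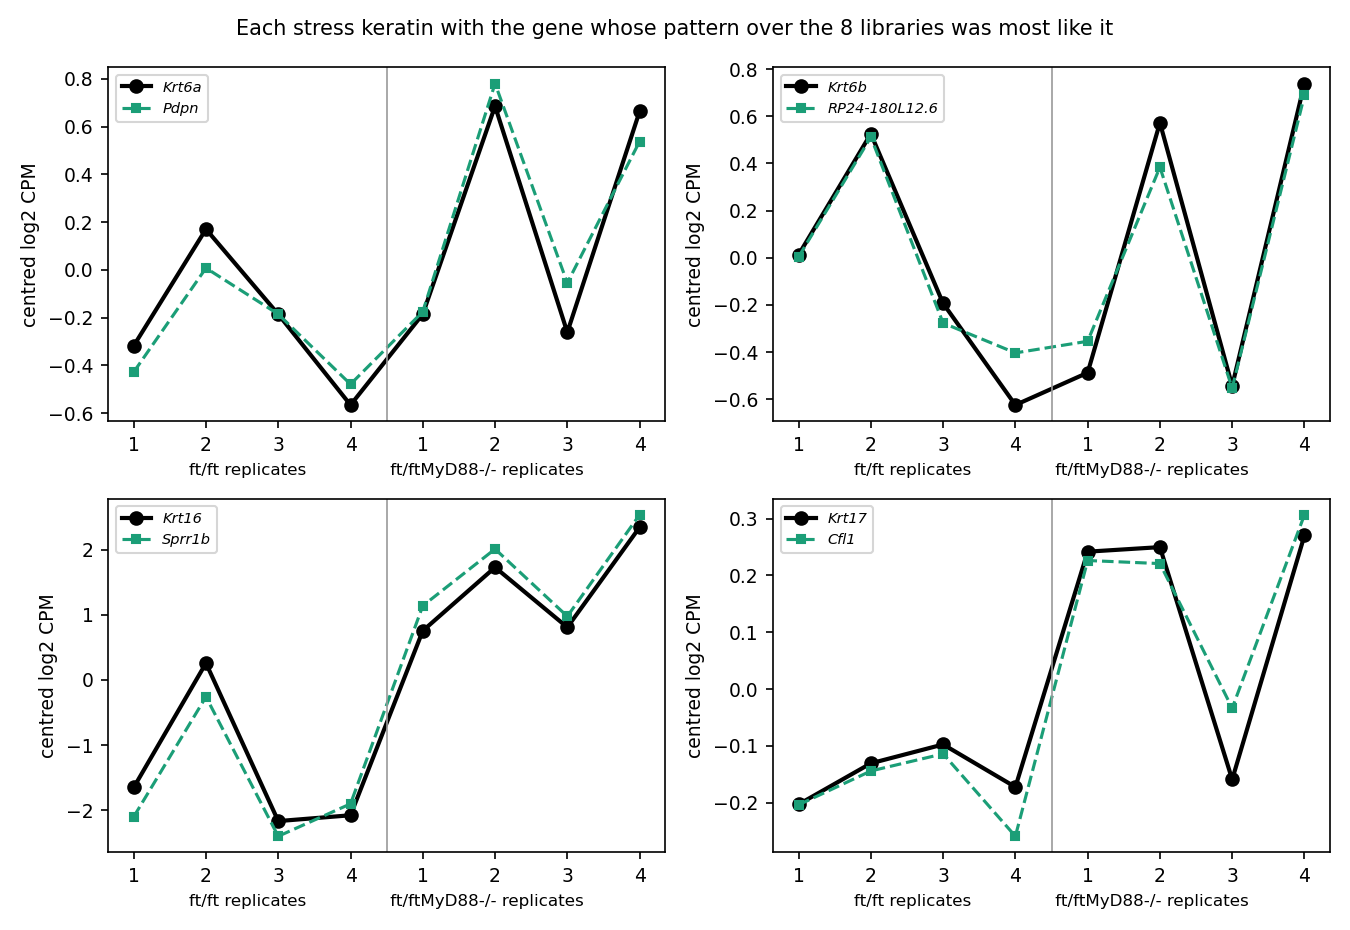
Log2 CPM of each stress keratin (black) and the gene most like it (green), centred on each gene's mean over the 8 libraries; lines join the libraries only to guide the eye and each panel has its own vertical axis. *Krt16* and *Sprr1b* are high in ft/ft replicate 2 and highest in ft/ftMyD88-/- replicate 4, *Krt6a* and *Krt6b* peak in ft/ftMyD88-/- replicates 2 and 4, and *Krt17* dips in ft/ftMyD88-/- replicate 3.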

How the data were processed

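Periocular skin RNA-seq was read from 8 libraries as gene counts, deposited by the authors as raw whole numbers. The paper describes polyA-selected 50-cycle single-end libraries, aligned by HISAT (GRCm38.p6 genome) and tophat2 (genes) and counted by HTSeq with default parameters, whereas the sample labels speak of total RNA, a protocol for fixed tissue, and Cell Ranger. Tool versions and the strand setting are not given in the sources used here. A gene entered the fit if its counts over the 8 libraries summed to 10 or more (20454 genes). The main test was the quasi-likelihood test of edgeR 4.0.16 in R 4.3.3 (robust, TMM, two-sided, without covariates), adjusted by Benjamini-Hochberg with a threshold of 0.05, and it was checked on simulated data. The BCV was 0.182. Alternatives were DESeq2 1.42.0, limma voom (limma 3.58.1), other scalings and filters, an adjusted p under 0.01, the replicate number as a block and each library left out. Replicate libraries differed by far more than counting noise. Transcripts came from the GENCODE annotation of GRCm38. The members, gene lists and tests were chosen with earlier results of these data known. Named genes were the 4 members, the 3 genes most like each (1 of them is not reported here), 8 epidermal keratins, at most 4 called genes of largest change per list, and the checks of the labels. *Krt42* and *Krt74* fall outside this rule.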

Additional observations from a re-analysis of the deposited data

Results flagged for a closer look

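In 36 groups of 4 libraries the highest or lowest value was checked against the other 3 by Dixon's test, which flags about 1 in 20 groups by chance, and 7 groups held a library that stood apart. ft/ft replicate 2 stood apart for *Krt16*, at 253 CPM where the other ft/ft libraries lay between 46.9 and 67.2. The same counts set it apart in 4 ratios within the library: *Krt16* as 7.07% of the stress keratin counts, 11.3 *Krt16* counts per 100 of *Krt17*, 23.4 per 100 of *Krt6a* and *Krt6b* together, and 4.59 per 100 of *Krt14*. ft/ftMyD88-/- replicate 3 stood apart for *Krt17*, at 2195 CPM where the others of its group lay between 2899 and 2957. ft/ftMyD88-/- replicate 1 stood apart with 70.2 *Krt17* counts per 100 of *Krt14*, against 52.1 to 52.7 in the others of its group.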

How the results depend on the processing

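Over 17 alternatives *Krt6a*, *Krt16* and *Krt17* had positive log2 fold changes throughout, and that of *Krt6b* was negative in 1, at -0.033 without ft/ftMyD88-/- replicate 4. Scaling to the epithelial genes gave 0.95 for *Krt6a*, 3.11 for *Krt16* and 0.74 for *Krt17*, with 3 of the 4 members, 25 keratins and 8780 genes called higher and 3 keratins and 528 genes called lower. Library size alone gave 2.75 for *Krt16* and 0.49 for *Krt17*, with 2 members, 7 keratins and 4638 genes called higher and 1326 genes lower. DESeq2 gave 2.60 and 0.33, with 2 members and 25 keratins higher, where 14.0% of all genes tested were. limma voom gave 2.82 for *Krt16*, with 1 member and 6 keratins higher, where 10.7% of all genes tested were. edgeR's filterByExpr gave 2.60 for *Krt16* (adjusted p = 0.0393, range over alternatives 0.00125 to 0.119), with 1 member and 4 keratins higher. With that filter 14.2% of all genes tested were higher. At an adjusted p under 0.01, 1 keratin and 951 genes were higher and 1350 genes lower. With each library left out in turn the log2 fold change lay between -0.033 and 0.43 for *Krt6b*, 2.20 and 3.52 for *Krt16*, and 0.28 and 0.42 for *Krt17*, and 0 to 1 member, 2 to 15 keratins and 1462 to 2260 genes were called higher. The 15 keratins were called without ft/ftMyD88-/- replicate 2, and the 1462 genes without ft/ft replicate 4. The cause of these changes was not tested. Replicate numbers shared by the groups did not pair the libraries: deviations of same-numbered libraries correlated at -0.258, 0.0411, 0.0481 and -0.0376 (across 16155 genes), and only ft/ft replicate 3 correlated best with its own number. With the number as a block, *Krt16* had a log2 fold change of 2.80 (adjusted p = 0.0693) and *Krt17* one of 0.30 (adjusted p = 0.145), and 1895 genes were higher and 2144 lower. Depth gave *Krt6a* and *Krt6b* at least 6555 counts in every library, and the effect of their shared sequence on the fold changes was not measured.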

Other observations

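Markers of other tissues in the biopsies differed between the groups beside the stress keratins. Of 8 skeletal muscle genes 7 were lower in ft/ftMyD88-/- and 0 higher (median log2 fold change -1.06), with a summed level of 9500 to 13049 CPM in ft/ft and 3621 to 6927 in ft/ftMyD88-/-. Of 10 sebocyte genes 6 were lower and 0 higher (median -0.38), at 8458 to 9902 against 6649 to 8591 summed CPM, and of 6 fibroblast genes 3 were lower and 0 higher (median -0.75). Of 8 leukocyte genes 4 were higher and 0 lower (median 0.46), at 385 to 458 against 551 to 812 summed CPM. Of 8 conjunctival and simple epithelium genes 2 were lower and 0 higher (median -0.47), at 1419 to 2727 against 1056 to 2022 summed CPM. Of the 8 epithelial genes used for scaling 5 were lower and 0 higher (median -0.35). These genes were called by edgeR's adjusted p under 0.05, which 10.9% of all genes tested passed as higher and 12.3% as lower. The part of tissue make-up in the stress keratin levels was not tested.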
